A study of Rattus norvegicus with 6 samples.

Results

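The genes described here encode 10 enzymes that remove superoxide and peroxides or keep the proteins that do so reduced. They are the superoxide dismutases Sod1 and Sod2, catalase (Cat), the glutathione peroxidases Gpx1, Gpx2 and Gpx3, the peroxiredoxin Prdx1, thioredoxin (Txn1), thioredoxin reductase 1 (Txnrd1) and sulfiredoxin (Srxn1). They were chosen by name, with earlier results of these data known. Every probe whose RefSeq accession belongs to 1 of them was taken, which gave 20 of the 61537 non-control probes on the array. All 20 probes and all 10 genes passed the filter on dim signal, among 12130 genes tested of 15645 that could be named.

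The 6 animals were male Sprague-Dawley rats bought at 5 weeks of age, and RNA from the renal cortex of each was read on 1 Cy3 array. Treated rats (n = 3) were given 4-hydroxy-m-phenylenediammonium dichloride, a readily oxidised aromatic diamine, at 100 mg/kg/day for 4 weeks, in a vehicle that the sources used here do not give. Control rats (n = 3) were given corn oil over the same 4 weeks. The comparison asked which transcripts differ in the cortex after repeated dosing.

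Superoxide dismutases turn superoxide into hydrogen peroxide, and catalase, glutathione peroxidases and peroxiredoxins reduce that peroxide to water. Peroxiredoxins are then restored by thioredoxin, which is restored in turn by thioredoxin reductase with electrons from NADPH, while sulfiredoxin rescues peroxiredoxins that have been over-oxidised. In rodents the genes for thioredoxin reductase 1, sulfiredoxin, peroxiredoxin 1 and glutathione peroxidase 2 are known targets of NRF2, a transcription factor that binds antioxidant response elements. The proximal tubule, the main cell type of the renal cortex, is rich in mitochondria and peroxisomes and is the source of the glutathione peroxidase 3 found in plasma.

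A level, as given below, is the log2 of a probe's Cy3 signal over its array's 75th percentile, so 0 is that percentile, and levels of different probes cannot be set against each other. The number of arrays limits their precision, and fewer cells of a type cannot be told from less RNA per cell in bulk tissue. All treated arrays lay on 1 slide and all control arrays on another, each with its own scan, and every difference given here is one of treatment and slide together, which cannot be told apart. The 75th percentile of the raw signal ran from 930 to 1002 on treated arrays and from 837 to 976 on control arrays, and 68.9% to 69.6% and 63.1% to 67.7% of probes were well above background. Over the 12130 genes, which are not independent replicates, log2 levels correlated at 0.993 to 0.994 within treated, 0.990 to 0.991 within control and 0.985 to 0.991 between the groups. The tissue label was checked against markers. All 12 proximal tubule markers, all 5 podocyte markers and all 4 markers of the inner medulla were well above background on all 6 arrays. The summed signal of the inner medulla markers was 5.06 to 6.43 in treated rats and 4.97 to 6.67 in control rats, in units of the 75th percentile. Those sums rest mostly on the brightest of the 4, Slc5a3, so their overlap does not show that the groups held equal amounts of medulla. All 4 had a higher treated mean, where 5282 of 12130 genes did. For 1 of the 4, Slc14a2 (log2 fold change 0.34), every treated animal lay above every control animal, as for 14.1% of all genes tested.

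Each gene is given by its brightest probe over all arrays. Srxn1 and Txnrd1 had measured levels 1.72-fold and 1.45-fold those of controls, and the other 8 genes had fold changes from 0.842 to 1.38. For Txnrd1 the choice of probe matters, since the mean of its 4 probes gave a log2 fold change of 0.31 in place of 0.54. With limma, 0 of the 10 genes were called higher and 0 lower at an adjusted p under 0.05, where 3.05% of all genes tested were called higher and 1.33% lower. At unadjusted p below 0.05, 2 of 10 were higher and 0 lower, where 11.8% and 13.2% of all genes were. The median log2 fold change was 0.08 over the 10 genes and -0.03 over all genes tested. The median of the 10 genes was 0.044 with median scaling, 0.038 without treated replicate 2 and 0.043 without treated replicate 3. On the same scale, 10 spike-in transcripts had a median treated minus control difference of -0.14, larger in size than these medians. The adjusted p over all genes ranged from 0.0698 for Txnrd1 to 0.995 for Prdx1.

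**Figure D1:**
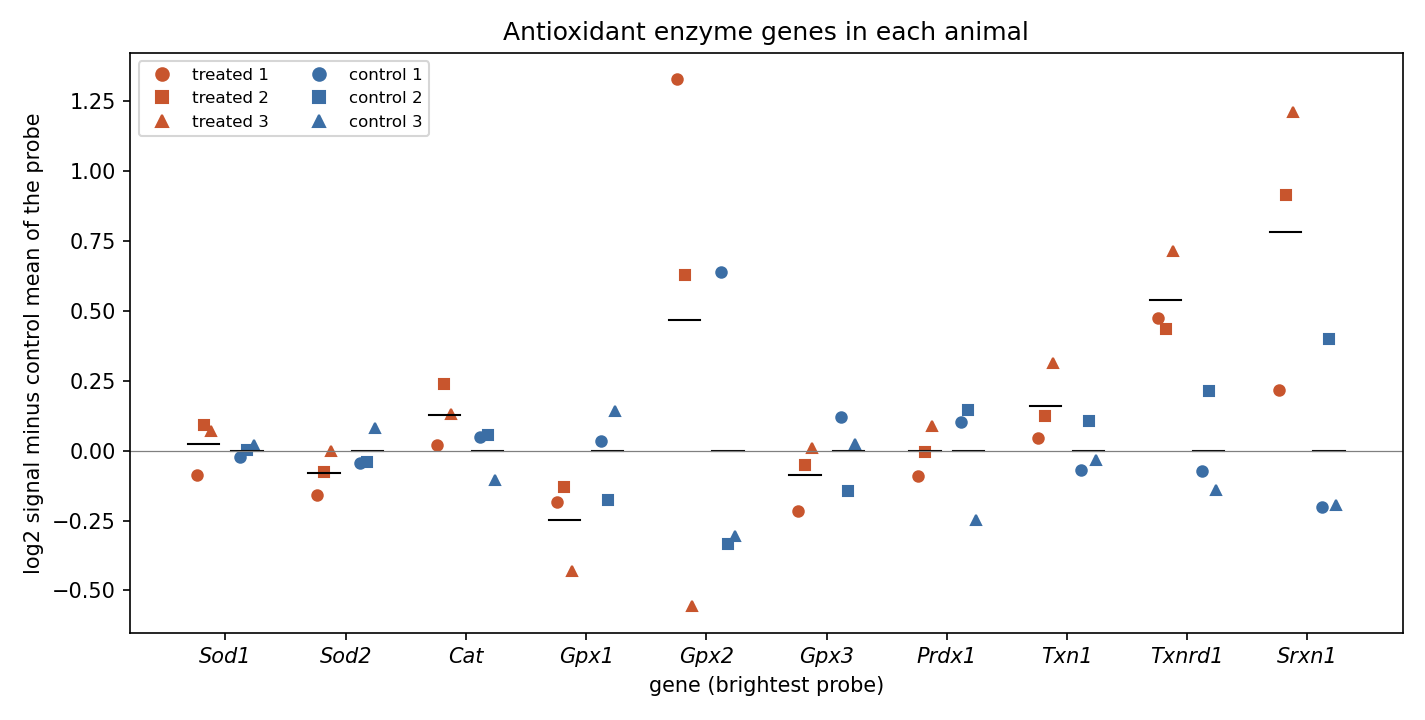
Log2 signal of the brightest probe of each of the 10 genes in each animal (y axis), less the mean of the 3 control animals for that probe, with treated animals in orange to the left of control animals in blue and a black bar for each group mean. The treated animals lie above all control animals for Txnrd1 only, and Gpx2 and Srxn1 spread most.

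Txnrd1, the NADPH-dependent enzyme that reduces thioredoxin, had levels of 1.53, 1.49 and 1.77 in treated rats and 0.98, 1.27 and 0.91 in control rats. Every treated animal lay above every control animal. Such a separation upwards was seen for 1 of the 10 genes and a separation downwards for 0, against 14.1% and 18.7% of all genes tested. The log2 fold change of Txnrd1 was 0.54 (SE 0.13, 95% interval 0.23 to 0.85) and the limma adjusted p was 0.0698, rank 958 of 12130 genes by p. It was the only one of the 10 genes to pass the threshold under any other setting tried, with an adjusted p of 0.0475 when the variance prior followed signal intensity, and its adjusted p ranged up to 0.185 over the other settings.

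The 4 Txnrd1 probes differed in size. The one given above, A_44_P134070, was the brightest over all arrays only through the treated arrays, with a mean of 1.59 in treated rats and 1.05 in control rats. The control means of A_44_P554454 and A_44_P456738 were 1.08 and 1.07, so the probe that stands for Txnrd1 was chosen in part by its treated values. On probe A_44_P554454 the log2 fold change was 0.35 (SE 0.11, limma adjusted p over all probes = 0.119), from levels of 1.29, 1.42 and 1.59 in treated rats and 0.94, 1.22 and 1.08 in control rats. Probe A_64_P076475 had one of 0.30 (SE 0.08, limma adjusted p = 0.0865), from levels of -0.86, -0.63 and -0.69 in treated rats and -1.06, -1.03 and -0.98 in control rats. The groups did not overlap on these 3 probes.

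The remaining Txnrd1 probe, A_44_P456738, read 0.89, 1.20 and 1.29 in treated rats and 1.04, 1.00 and 1.18 in control rats, so that the groups overlapped and the log2 fold change was 0.06 with SE 0.12 (limma adjusted p = 0.812). Where the probes lie in the transcripts was not analysed here. Within each array the difference between A_44_P134070 and A_44_P456738 averaged 0.47 ± 0.18 in treated rats and -0.02 ± 0.27 in control rats (SD, n = 3 each), a gap of 0.48. The exact two-sided permutation p of that gap was 0.1, the smallest that 3 animals against 3 allow.

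Srxn1, which restores over-oxidised peroxiredoxins, had levels of 1.39, 2.09 and 2.39 in treated rats and 0.97, 1.57 and 0.98 in control rats. Treated replicate 1 lay below control replicate 2, so the groups overlapped. The log2 fold change was 0.78 (SE 0.30, 95% interval 0.04 to 1.52) with a limma adjusted p of 0.183. It was 1.06 without treated replicate 1 and 0.57 without treated replicate 3.

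The dimmer Srxn1 probe, A_42_P703664, ordered the animals in nearly the same way, with -4.37, -3.68 and -3.56 in treated rats and -4.53, -4.15 and -5.00 in control rats. Its log2 fold change was 0.69 (SE 0.30, limma adjusted p = 0.215), and it was well above background on 3 of 3 treated and 2 of 3 control arrays. This dimmer probe thus passed the filter on dim signal only through the treated arrays, and is no independent support for the brighter one. Both Srxn1 probes placed treated replicate 3 highest, then treated replicate 2, then control replicate 2.

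The summed linear signal of 7 red cell markers tested, of 10 listed, ran from 12.4 to 21.6 in treated rats and from 9.27 to 10.04 in control rats, in units of the 75th percentile, and was 12.4, 21.2 and 21.6 in treated replicates 1, 2 and 3. All 7 had a higher treated mean, where 5282 of all 12130 genes did. Of the 7, 1 was called higher, where 3.05% of all genes were (Gata1, whose probe was not well above background in any of the 3 control rats). Gata1 and Hemgn, which was well above background in 2 of 3 control rats, passed the filter only through the treated arrays. The count of 7 and the call are therefore in part fixed by that filter. Rhag, also listed, was on the array and did not pass. Among treated rats the red cell sums rose from replicate 1 to 2 to 3. The brightest probes of Srxn1, Txn1, Prdx1, Sod2 and Gpx3 rose in that order too, and those of the other members did not. Of the dimmer probes, Txnrd1's A_44_P554454 and A_44_P456738, Srxn1's A_42_P703664 and Sod2's A_43_P11792 also rose in that order. How many of all genes tested rose in it was not counted, so the order of the members cannot be set against that of all genes. The summed signal of 9 leukocyte markers, of 12 listed, was 5.20 to 6.01 in treated rats and 3.95 to 4.93 in control rats, with 0 called by limma. Below an unadjusted p of 0.05, 2 of the 9 were higher and 1 lower, where 11.8% and 13.2% of all genes were. The 2 higher were S100a8 and S100a9, with the largest log2 fold changes, 1.51 and 1.35. The 1 lower was Itgam, at -0.66, with every treated animal below every control animal. Over the 9 leukocyte markers the median log2 fold change was 0.006, and 5 had a higher and 4 a lower treated mean. One red cell marker, Slc4a1, is also in the collecting duct list. It was the brightest of the 7, with control levels of 2.92, 2.82 and 2.93, where Alas2, the next, read 0.78, 0.35 and 0.32. The red cell sums of control rats therefore rest mostly on Slc4a1, whose log2 fold change was 0.40. The summed signal of the 12 proximal tubule markers was 2155 to 2213 in treated rats and 2228 to 2381 in control rats. Of these, 0 were called higher and 2 lower, Anpep (-0.65) and Aqp1 (-0.58), where 3.05% and 1.33% of all genes were. The median log2 fold change of the 12 was -0.06, and 2 had a higher and 10 a lower treated mean. The groups did not overlap for 1 of the 12 upwards, Gatm (0.19), and 4 downwards, Anpep, Aqp1, Lrp2 and Slc13a3. Of all genes tested, 14.1% and 18.7% were so separated. With the replicate number as a block, and in 4 of the 6 fits that leave out 1 array, 0 of all genes tested were called by limma, so these marker calls are lost there. The part of red cells, leukocytes and tubule cells in the values of Srxn1 and of the other antioxidant genes was not tested.

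The promoters of 4 of the genes are printed because Txnrd1 and Srxn1 had the smallest p, while Prdx1 and Gpx2, also counted among NRF2 targets, had a mean close to that of controls or a wide spread. The sequences are RefSeq's on build GRCr8, from 250 bases before to 20 bases after an annotated transcript start, 5′ to 3′ on the strand of the gene. Capitals mark the letters TGACNNNGC, a strict form of the core of the antioxidant response element, and TGANTCA, the site of AP-1 factors, on either strand.
Txnrd1, chr7:22755885-22756154, minus strand: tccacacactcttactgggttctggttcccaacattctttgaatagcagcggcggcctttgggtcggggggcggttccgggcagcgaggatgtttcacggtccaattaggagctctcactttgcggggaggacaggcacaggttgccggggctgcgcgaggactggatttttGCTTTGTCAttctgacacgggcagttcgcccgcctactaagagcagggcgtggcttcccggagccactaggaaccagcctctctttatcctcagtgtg
Srxn1, chr3:161064562-161064831, plus strand: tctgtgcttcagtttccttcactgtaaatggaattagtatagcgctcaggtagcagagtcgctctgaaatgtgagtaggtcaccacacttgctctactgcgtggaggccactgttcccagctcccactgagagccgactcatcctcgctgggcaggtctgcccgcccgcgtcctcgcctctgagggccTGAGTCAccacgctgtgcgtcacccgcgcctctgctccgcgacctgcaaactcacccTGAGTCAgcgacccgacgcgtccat
Prdx1, chr5:135383656-135383925, plus strand: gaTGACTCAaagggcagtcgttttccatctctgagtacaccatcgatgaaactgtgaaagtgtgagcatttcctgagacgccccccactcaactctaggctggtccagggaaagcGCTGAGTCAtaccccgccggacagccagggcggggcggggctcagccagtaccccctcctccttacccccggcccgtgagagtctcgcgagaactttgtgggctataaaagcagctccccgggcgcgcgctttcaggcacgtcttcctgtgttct
Gpx2, chr6:101230014-101230283, minus strand: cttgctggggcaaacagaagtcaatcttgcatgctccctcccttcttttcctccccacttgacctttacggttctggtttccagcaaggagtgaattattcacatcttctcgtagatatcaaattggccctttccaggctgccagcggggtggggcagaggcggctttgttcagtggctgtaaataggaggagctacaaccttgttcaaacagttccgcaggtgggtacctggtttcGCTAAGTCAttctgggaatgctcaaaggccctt

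The TGACNNNGC core was present in 4 of the 11 windows of the 10 genes, those of Txnrd1, Prdx1, Gpx2 and Sod2, and in 10.9% of 33469 windows of the same length over all genes. The match began 78 bases before the start in Txnrd1, 135 in Prdx1, 13 in Gpx2 and 35 in Sod2, each on the opposite strand. Txnrd1 has 2 windows in the table, and the other one held no match. TGANTCA was present in 2 of the 11 windows, with 2 matches each in Srxn1 and Prdx1, and in 6.81% of all windows. In Srxn1 the matches began 62 and 5 bases before the start. In Prdx1 they began 248 and 133 bases before the start, and the nearer one overlaps the TGACNNNGC match. These are matches of letters and were not set against any binding data.

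Txn1, the small protein that passes electrons from Txnrd1 to peroxiredoxins, had levels of 7.08, 7.16 and 7.35 in treated rats and 6.97, 7.14 and 7.00 in control rats. The groups overlapped through control replicate 2, and the log2 fold change was 0.16 (SE 0.09, 95% interval -0.07 to 0.39, adjusted p = 0.340). Prdx1, a cytosolic peroxidase that uses thioredoxin, had levels of 5.63, 5.72 and 5.81 in treated rats and 5.82, 5.87 and 5.48 in control rats. The treated animals lay inside the range of the controls. The fold change of Prdx1 was 0.999 with a 95% interval from 0.811 to 1.23, which leaves room for a difference of either sign (adjusted p = 0.995).

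Gpx2, a glutathione peroxidase best known from the gut epithelium, spread more between animals than any other of the 10 genes. Its brightest probe read 4.89, 4.19 and 3.00 in treated rats and 4.20, 3.23 and 3.25 in control rats. Treated replicate 1 was the highest and treated replicate 3 the lowest of the 6 animals. The log2 fold change was 0.47 (SE 0.53, 95% interval -0.85 to 1.78, adjusted p = 0.624), and it was 0.04 without treated replicate 1 and 0.98 without treated replicate 3.

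The spread of Gpx2 was the same on its other probes. Probe A_64_P059565 read 3.69, 2.96 and 1.73 in treated rats and 2.97, 2.01 and 2.01 in control rats. Probe A_44_P500056 read 0.82, 0.09 and -1.07 in treated rats and 0.06, -1.05 and -0.98 in control rats. Between the highest and the lowest treated animal the signal differed 3.70-fold, 3.87-fold and 3.71-fold on A_64_P051430, A_64_P059565 and A_44_P500056. The SD of Gpx2 within groups was 0.78 and only 1.96% of all genes tested had a larger one, with Srxn1 next among the 10 genes at 0.44 (7.12%).

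**Figure D2:**
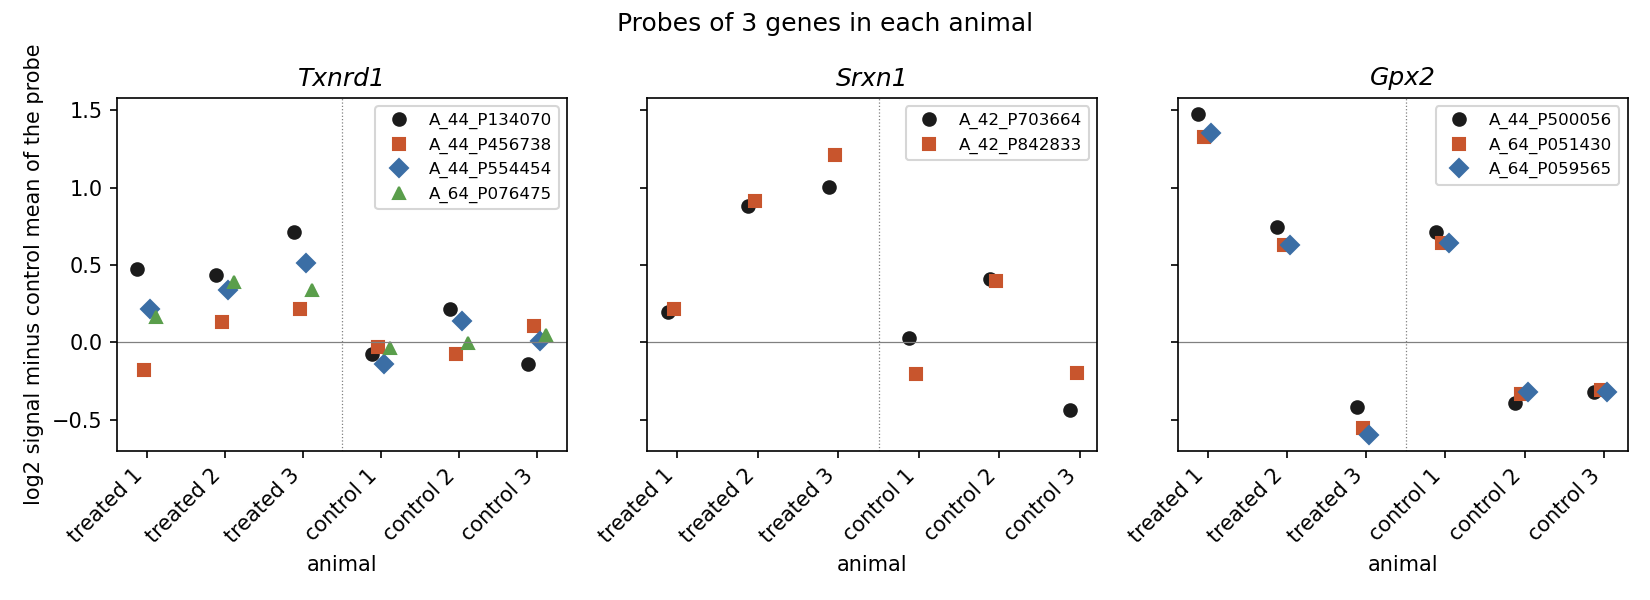
Log2 signal of every probe of Txnrd1, Srxn1 and Gpx2 in each animal, less the mean of the 3 control animals for that probe, with treated animals left of the dotted line and control animals right of it. The 3 Gpx2 probes and the 2 Srxn1 probes follow each other from animal to animal, while the Txnrd1 probe A_44_P456738 stays below the other 3 Txnrd1 probes in every treated animal.

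Gpx1, the main cytosolic glutathione peroxidase, had the lowest fold change of the 10 genes. Its brightest probe, A_44_P123315, read 8.11, 8.17 and 7.87 in treated rats and 8.33, 8.12 and 8.44 in control rats. The groups overlapped through control replicate 2, and the log2 fold change was -0.25 (SE 0.12, 95% interval -0.54 to 0.05, adjusted p = 0.265). It was -0.16 without treated replicate 3. On the other Gpx1 probe, A_42_P805300, every treated animal lay below every control animal, at 7.99, 8.06 and 7.79 against 8.26, 8.11 and 8.39, and the log2 fold change was -0.30 (SE 0.11, limma adjusted p over all probes = 0.150).

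Gpx3, the plasma glutathione peroxidase secreted by the kidney, had 1 probe, which read 7.93, 8.10 and 8.16 in treated rats and 8.27, 8.01 and 8.17 in control rats. The groups overlapped, with a fold change of 0.942 and a 95% interval from 0.797 to 1.11 (adjusted p = 0.620). Cat, the peroxisomal enzyme that splits hydrogen peroxide, read 3.29, 3.51 and 3.40 in treated rats and 3.32, 3.33 and 3.17 in control rats. Treated replicate 1 lay among the controls, and the fold change was 1.09 with an interval from 0.950 to 1.26 (adjusted p = 0.381). Its log2 fold change of 0.13 became 0.26 with a normexp background, which subtracts the local background from the spot by a model.

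Sod1, the cytosolic copper and zinc enzyme, had the smallest SD within groups of the 10 genes, 0.071, with 7.72, 7.90 and 7.88 in treated rats and 7.78, 7.81 and 7.83 in control rats. Its fold change was 1.02 with an interval from 0.907 to 1.14 (adjusted p = 0.846). On its other 2 probes the groups overlapped, with log2 fold changes of -0.08 and -0.04. Sod2, the manganese enzyme of mitochondria, differed between its probes. The brighter probe, A_64_P110103, read 2.95, 3.04 and 3.11 in treated rats and 3.07, 3.07 and 3.20 in control rats, and the log2 fold change was -0.08 with SE 0.07 (limma adjusted p = 0.518). Probe A_43_P11792 read 1.66, 1.70 and 1.75 in treated rats and 1.51, 1.50 and 1.55 in control rats, without overlap, and its log2 fold change was 0.18 (SE 0.06, limma adjusted p over all probes = 0.122).

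Sod2's probes had log2 fold changes of opposite sign. The level of A_43_P11792 minus that of A_64_P110103 on the same array was -1.33 ± 0.04 in treated rats and -1.59 ± 0.04 in control rats (SD, n = 3 each), a gap of 0.26 that is unaffected by any constant scaling of an array. Its exact permutation p was 0.1, the smallest possible. After adjustment over the 15 pairs of probes of the same gene this p was 0.214. The groups did not overlap for 7 of the 15 pairs, and each of these had the same exact and adjusted p. They include pairs of Sod1, Gpx2 and Txnrd1, so this test does not set Sod2 apart from those genes. The gap between Txnrd1's A_44_P134070 and A_44_P456738 was the largest of the 15, and pairs of 1 gene share probes.

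**Figure D3:**
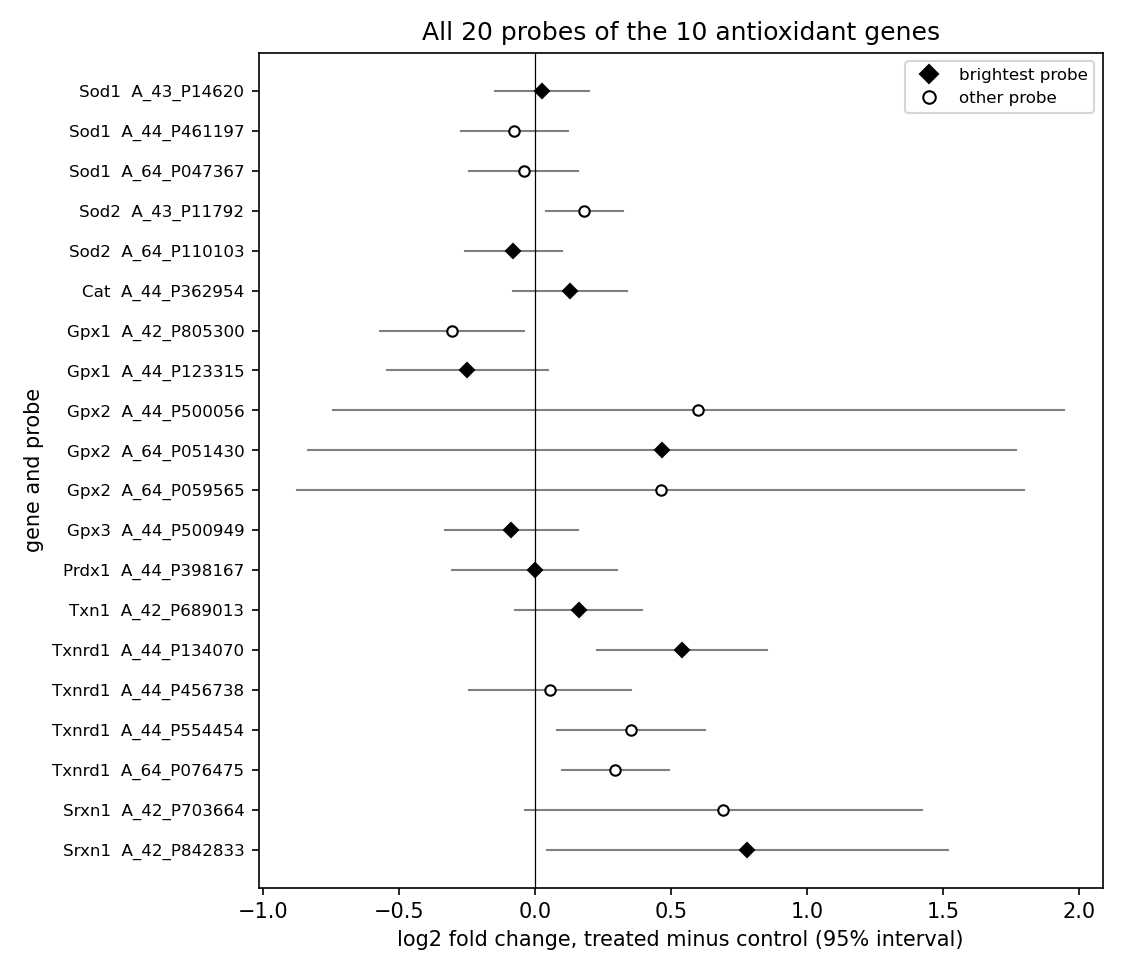
Log2 fold change, treated minus control, with its 95% limma interval for each of the 20 probes, filled diamonds marking the brightest probe of each gene and open circles the others. The 3 Gpx2 intervals are the widest, and 6 of the 20 intervals leave out 0, namely those of 3 Txnrd1 probes, 1 Srxn1 probe, 1 Sod2 probe and 1 Gpx1 probe.

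Over the 20 probes, 0 were called higher and 0 lower by limma, where 4.97% and 1.74% of 40988 probes were. Below an unadjusted p of 0.05, 5 probes were higher and 1 lower, where 13.9% and 11.7% of all probes were. The groups did not overlap for 4 probes upwards and 1 downwards, against 16.6% of all probes in each direction. Probes of 1 gene share their target and are not independent of each other. With all genes tested split into 5 equal groups by mean signal, 8 of the 10 genes were in the brightest group, whose median log2 fold change was -0.08, and Txnrd1 and Srxn1 were in the next, with a median of -0.04.

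The rest of the same enzyme systems was measured as 33 further genes, of which 29 were tested and 4 were not named on the array. With limma, 0 of the 29 were called higher and 0 lower, and below an unadjusted p of 0.05, 0 were higher and 6 lower, against 11.8% and 13.2% of all genes tested. Their median log2 fold change was -0.07, and 11 had a higher and 18 a lower treated mean. The groups did not overlap for 0 of the 29 upwards and 6 downwards, against 14.1% and 18.7% of all genes tested.

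Among 11 other peroxidase and superoxide dismutase genes, 0 were called, and the median log2 fold change was -0.07. The smallest p were those of Prdx4, the peroxiredoxin of the endoplasmic reticulum, and Ccs, the chaperone that loads copper into Sod1. Prdx4 read 0.12, 0.09 and 0.32 in treated rats and 0.45, 0.52 and 0.39 in control rats, without overlap (log2 fold change -0.28, SE 0.08, adjusted p = 0.114). Ccs read 3.82, 3.86 and 3.89 in treated rats and 4.11, 4.07 and 3.96 in control rats, again without overlap (log2 fold change -0.19, SE 0.06, adjusted p = 0.144).

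Among 10 thioredoxin and glutaredoxin genes, 0 were called, with a median of -0.06. Glrx, which encodes glutaredoxin 1, read 1.14, 0.89 and 0.93 in treated rats and 1.50, 1.22 and 1.53 in control rats, without overlap (log2 fold change -0.43, SE 0.12, adjusted p = 0.0964). Txnrd2, the mitochondrial thioredoxin reductase, read 1.73, 1.49 and 1.58 in treated rats and 1.72, 1.93 and 1.91 in control rats, and the groups overlapped through treated replicate 1 (log2 fold change -0.26, SE 0.09, adjusted p = 0.164). The sign of Txnrd2's difference is opposite to that of the cytosolic Txnrd1, and the difference between them was not tested. Txnrd3, a further thioredoxin reductase gene of this list, had the sign of Txnrd1, with groups that overlapped (log2 fold change 0.34, SE 0.15, limma adjusted p = 0.224).

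Among 8 methionine sulfoxide reductase, sestrin and selenoprotein genes, 0 were called, with a median of -0.10. Msrb1 and Msrb2, which reduce oxidised methionine, differed by -0.21 (SE 0.08) and -0.17 (SE 0.06) on the log2 scale, and their adjusted p were 0.167 and 0.152. For both, every treated animal lay below every control animal. With a normexp background, Ccs and Txnrd2 were called lower (log2 fold changes -0.30 and -0.38, adjusted p = 0.0372 and 0.0442).

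**Figure D4:**
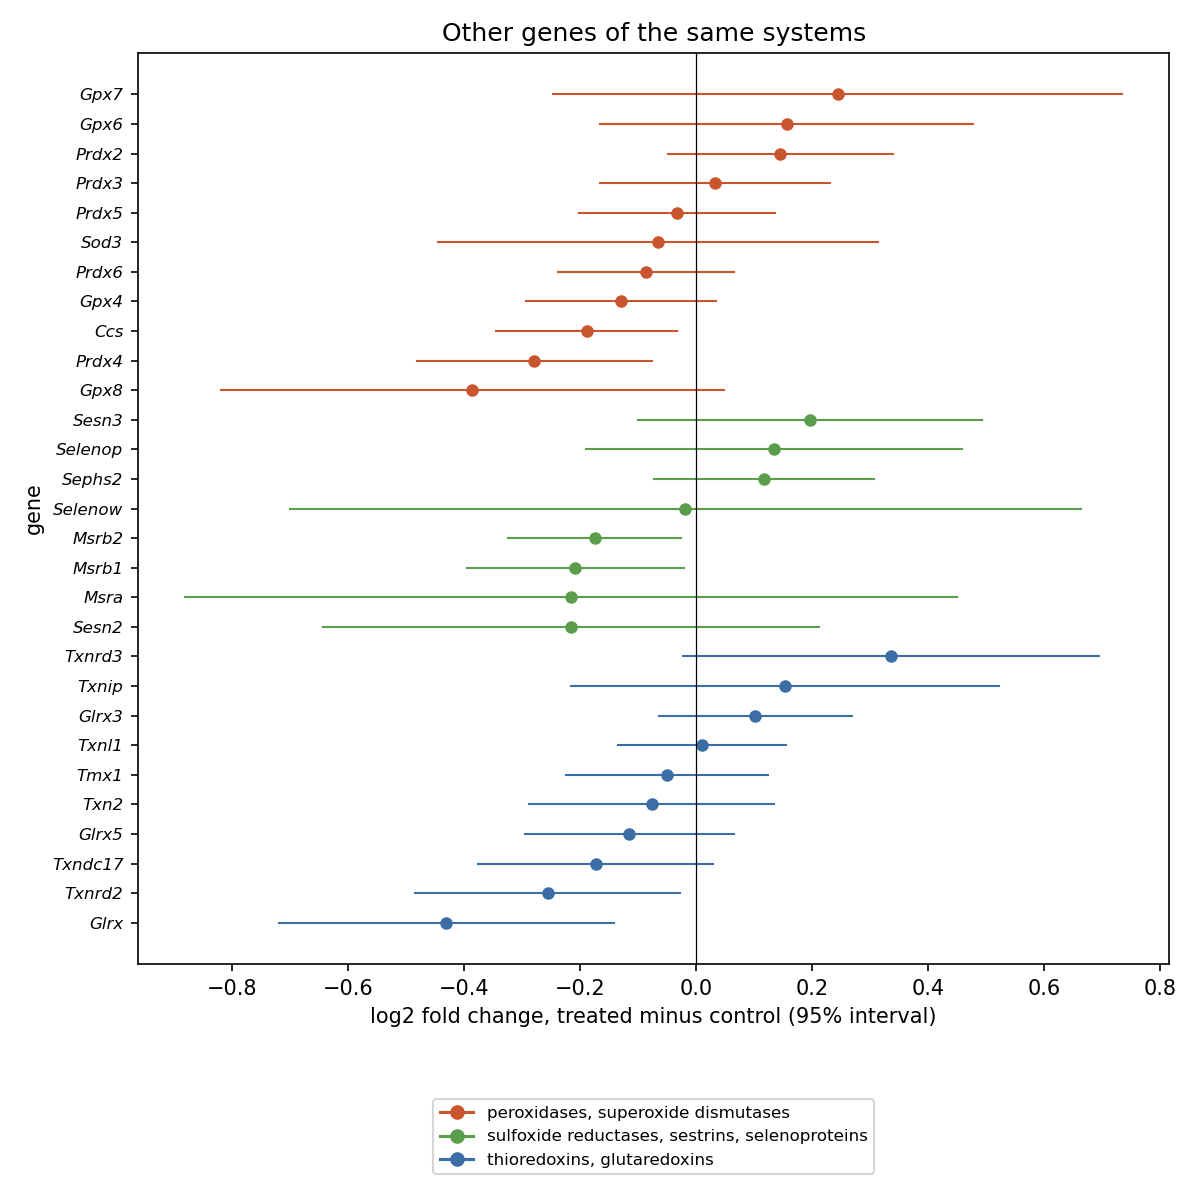
Log2 fold change, treated minus control, with its 95% limma interval for 29 further genes of the same enzyme systems, coloured by list. The 6 intervals that leave out 0, those of Prdx4, Ccs, Msrb1, Msrb2, Glrx and Txnrd2, all lie below it.

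By the distance between profiles over the 6 arrays, each taken relative to its control mean, the genes most like Txnrd1 were Bloc1s6, a subunit gene of a complex of lysosome-related organelles, Gsta4, a glutathione S-transferase gene, and Syndig1l. Their distances were 0.15, 0.18 and 0.23 in log2 units, and their log2 fold changes were 0.52, 0.59 and 0.46. Bloc1s6 read 1.42, 1.30 and 1.53 in treated rats and 0.88, 1.02 and 0.78 in control rats. Gsta4 read 6.90, 7.04 and 7.11 in treated rats and 6.33, 6.65 and 6.29 in control rats. Syndig1l read -2.70, -2.81 and -2.52 in treated rats and -3.10, -3.04 and -3.27 in control rats. The genes most like Srxn1 were Hist3h2ba, Loxhd1 and Ugt1a2, at distances of 0.30, 0.31 and 0.34. Hist3h2ba read -2.07, -1.44 and -1.20 in treated rats and -2.56, -1.99 and -2.27 in control rats. Loxhd1, a dim gene, read -5.55, -5.06 and -4.65 in treated rats and -5.86, -5.38 and -5.90 in control rats. Ugt1a2, a UDP-glucuronosyltransferase gene, read 4.10, 4.88 and 4.82 in treated rats and 3.71, 4.06 and 3.74 in control rats. The gene nearest to Gpx2, looked for after its values were seen, was Fam241a, at a distance of 0.58.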

How the data were processed

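Cy3-labelled cRNA was made by linear amplification, per the labels' protocols. The array design is tied to rn4 and Agilent's Feature Extraction software was version 10.7.1.1, per the file headers; the submitters' processing notes give 10.7. The deposited spot intensity, per the file headers, is background-subtracted and detrended. The authors' deposited table of values is a ratio on a linear scale, about 0.998 times the array's signal over its 75th percentile, with column medians of 0.110, 0.108 and 0.108 for treated and 0.105, 0.104 and 0.109 for control arrays; the labels do not state that step. It is not centred per gene.

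The values used were log2 of the signal minus log2 of the 75th percentile of each array over non-control probes, with outlier spots (1 to 3 an array) missing. No spot was saturated. Accessions were matched to RefSeq genes of assembly GRCr8, naming 28206 probes. Probes were kept if well above background on all arrays of either group, and the brightest stood for its gene. Limma 3.58.1 (R 4.3.3, lmFit and eBayes, prior degrees of freedom 1.77) was fitted on all genes and, separately, all probes, with Benjamini-Hochberg adjustment and a threshold of 0.05. It was tested on simulated data. Other backgrounds, scalings, filters, probe summaries and variance priors, a replicate block and leaving out each array were tried. All members are named, with the 2 genes of smallest p in each wider list (up to 4 if called) and the 3 genes nearest to each of the 2 members of smallest p. Members, lists and tests were chosen with earlier results of these data known. Probe pairs, the naming of Txnrd3 and the profile nearest to Gpx2 were added after the values were seen. Replicates are separate animals, per the design text. Same-numbered animals' deviations correlated at -0.118, -0.114 and 0.089, so the numbers were not taken as pairs.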

Additional observations from a re-analysis of the deposited data

How the results depend on the processing

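Over the 10 genes and 15 other settings, 139 log2 fold changes kept their sign and side of the threshold, 1 passed it and 10 changed sign. Txnrd1 had an unadjusted p under 0.05 in all 15 settings and Srxn1 in 9. With an intensity trend in the variance prior, 1 gene and 1 probe of the 10 genes were called higher, both Txnrd1 (log2 fold change 0.54, adjusted p = 0.0475), and of all genes 441 were called higher and 395 lower, so that 52.8% of calls were higher. With a normexp background, 1 probe was called higher (Txnrd1's A_44_P134070, adjusted p = 0.0433), 2 of the wider genes were called lower, 449 of all genes were higher and 496 lower, so that 47.5% of calls were higher, against 69.7% in the main setting, and Gpx3 and Prdx1 changed sign, to 0.040 and 0.026. Prdx1 also changed sign with quantile scaling (0.078), without control replicate 1 (0.049), without control replicate 2 (0.071) and without treated replicate 1 (0.042), over a range of -0.125 to 0.071 with 1 array left out. Sod1 changed sign with median scaling (-0.0082), without treated replicate 2 (-0.0073) and with the mean of a gene's probes (-0.031), which also turned Sod2 (0.051); with 1 array left out Sod1 reached 0.082. The mean of probes took Txnrd1 to 0.31 and left 229 higher and 63 lower calls over all genes. Without a filter on dim probes there were 37 and 7. The cause of these changes was not tested.

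With the replicate number as a block, 0 genes were called higher and 0 lower, against 370 and 161 without it; the block changed no call among the 10 genes. Leaving out 1 array gave 0 to 48 higher and 0 to 6 lower calls over all genes, with 2 arrays against 3 in each such fit: 48 and 6 without control replicate 2, 44 and 2 without treated replicate 1, and 0 without any of the other 4. The planned slide and scan block was not run, since each slide held 1 group. With normexp the median spot and background signals were used. With 1 array left out, Gpx1 ranged from -0.336 to -0.156, Txn1 from 0.084 to 0.219, Cat from 0.076 to 0.184 and Gpx3 from -0.158 to -0.021. Among the probes of the 10 genes, signal over background limited only the dimmer Srxn1 probe.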
